A study of Bos taurus with 60 samples.

Results

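This report covers the 2 mature arms of the microRNA hairpin bta-mir-22 in bovine liver, bta-miR-22-3p and bta-miR-22-5p. They were taken by name from the 1030 mature miRNAs counted in the liver of 60 steers, and neither their levels nor their fold changes entered that choice. Each arm came from 1 precursor and was counted in all 60 libraries.

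The study sequenced small RNA from the liver of 20 Angus, 20 Charolais and 20 Kinsella Composite (KC) steers, all castrated males on 1 barley-based finishing diet with rumensin pellets, with 1 library per steer. Angus and Charolais were purebred, while KC is a crossbred beef composite that itself carries Angus and Charolais ancestry. In each breed 6 steers were labelled low-RFI, 6 high-RFI and 8 carried no RFI label. Residual feed intake (RFI) is the difference between what an animal eats and what its size and growth predict, so a low-RFI steer is feed efficient. By the study's methods the profiled steers came from both ends of the RFI ranking, and the 12 compared in each breed were picked partly for similar miRNA profiles, which limits how far they stand for the breed. The labels name 7 Angus, 5 Charolais and 10 KC sires, so some steers were half-sibs, and 1 KC steer (low-RFI, replicate 3) carries a code beginning with NA that may mean an unrecorded sire. The methods also give KC the youngest average age at slaughter, so breed and age cannot be told apart.

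A miRNA hairpin is cut by Dicer into a duplex whose strands come from its 5′ and 3′ sides, the 5p and 3p arms. One strand is usually loaded into an Argonaute protein and guides it to messenger RNAs that match its seed, bases 2 to 8, while the other is degraded. miR-22 is conserved among vertebrates and expressed in many tissues. It is best known for roles in heart muscle growth, in cell proliferation and in hepatic lipid and energy metabolism.

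The mature sequences below, taken from the study's list of known miRNAs, are shown because the seeds of the arms are unrelated and the strands pair with each other. Capitals mark the seed.
bta-miR-22-3p: aAGCUGCCaguugaagaacug
bta-miR-22-5p: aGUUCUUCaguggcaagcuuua
RNAduplex predicted 19 base pairs between them at -24.6 kcal/mol, in a duplex reported over bases 1 to 21 of each arm. That span is wider than the pairing, since base 1 of 5p (A) and base 21 of 3p (G) cannot pair with each other. Base 1 of 5p can pair with the U just before base 21 of 3p. No other of the 588 known mature sequences listed by the study carried either seed, and none came within 3 mismatches of either arm over at least 16 bases at a shift of at most 2. Of the 239 predicted mature sequences read from the study's lists, 1 shared the 3p seed. It is shown because it differs from bta-miR-22-3p at 2 of 19 aligned bases and could draw the same reads.
bta-miR-AB-133: uAGCUGCCagaugaagaac
The deposited counts do not list it, and its part in the counts of bta-miR-22-3p was not tested.

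In the RefSeq annotation of the assembly ARS-UCD2.0, MIR22 lies on chromosome 19 within the span of the gene TLCD2, between PRPF8 and WDR81. The same annotation places MIR3600 over MIR22. The files were made on the older build UMD3.1, so no position is given here. bta-miR-3600 had 0 counts in all 60 libraries, and 3 counts would have corresponded to between 0.444 and 1.55 CPM (counts scaled to a common library total), so it was not detectable at this depth.

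Library totals ran from 1930859 to 6759381 averaged miRNA counts, with medians of 3720336 (Angus), 4405876 (Charolais) and 5547018 (KC). No 2 libraries held identical counts. bta-miR-122, the defining hepatocyte miRNA, was abundant in every library, at 5361 CPM or more. Levels below are CPM scaled by edgeR's trimmed mean of M-values (TMM), which corrects for a few very abundant miRNAs taking up more or less of a library. Of the TMM factors, 2 were under 0.7, at 0.673 (Angus without RFI label, replicate 3) and 0.698 (Charolais without RFI label, replicate 7), against at least 0.851 elsewhere. Breed comparisons over all steers, correlations of the arms with TMM and that of depth with the arm ratio were repeated without them. Fits of the unlabelled steers alone, which hold both libraries, and those with library totals were not.

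bta-miR-22-3p, the more abundant arm, was one of the main liver miRNAs. Over 60 steers its level ran from 25063 CPM through a median of 37002 to 49319 CPM, and it took between 2.04% and 4.85% of all miRNA counts. By count it was the sixth most abundant miRNA in 56 of 60 libraries, with rank 5 in 1, rank 7 in 2 and rank 8 in 1. By mean CPM it followed bta-miR-30a-5p (108872 CPM) and bta-miR-26a (49886 CPM) and preceded bta-miR-27b (28326 CPM) and bta-let-7f (26025 CPM). Its mean of 36581 CPM thus stood clear of its neighbours, and the rank was nearly fixed over animals.

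bta-miR-22-5p, the other strand of the same duplex, stood far below. Its level ran from 23.8 CPM through a median of 40.1 to 59.3 CPM, with ranks between 123 and 162 among the mature miRNAs of a library. Its counts ran from 75 to 276 per steer. The exact Poisson 95% interval of the lowest count was 59 to 94 and that of the highest 244.4 to 310.6, which covers counting error only. Counting error alone therefore set a coefficient of variation (CV) of 6.02% to 11.5% on a single 5p value, whereas for 3p it averaged 0.237% to 0.304% in every group.

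**Figure D1:**
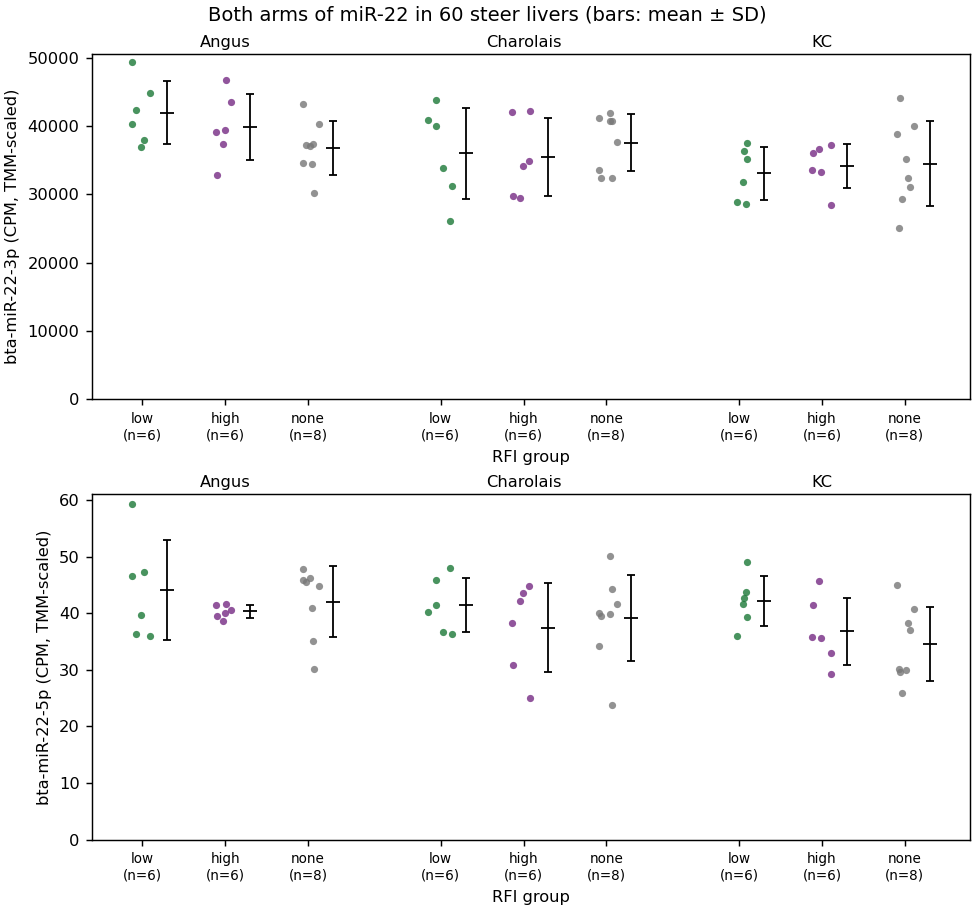
Level of bta-miR-22-3p (upper panel, CPM) and bta-miR-22-5p (lower panel, CPM) in each of 60 steers, by breed and RFI group, with mean ± SD beside each group. The 3p values lie between 25063 and 49319 CPM with Angus highest on average, and the 5p values lie between 23.8 and 59.3 CPM with all groups overlapping.

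Among the breeds, the 3p arm was highest in Angus. Angus steers ran from 30237 through 38569 to 49319 CPM (39287 ± 4732 CPM, SD, n = 20). Charolais ran from 26158 through 36283 to 43875 CPM (36466 ± 5253 CPM, SD, n = 20). KC ran from 25063 through 34387 to 44169 CPM (33989 ± 4658 CPM, SD, n = 20). The ranges of the breeds overlapped widely, yet 17 of 20 KC steers lay below the Angus median. The 5p arm had the same order of breed means, at 42.2 ± 6.15 CPM for Angus, 39.3 ± 6.82 CPM for Charolais and 37.5 ± 6.39 CPM for KC (SD over 20 steers). Here 13 of 20 KC steers and 11 of 20 Charolais steers lay below the Angus median.

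The breed comparison asked whether either arm differed between cattle populations fed alike. In an edgeR quasi-likelihood fit of 397 miRNAs over 60 steers, bta-miR-22-3p was lower in KC than in Angus by a factor of 0.865, a log2 fold change of -0.21 (SE 0.06, 95% interval -0.33 to -0.09, adjusted p = 0.0156). In that comparison 51 of 397 miRNAs, or 12.8%, passed an adjusted p of 0.05, and bta-miR-22-3p had the thirty-first smallest p. The KC counts cover 52 pairs of miRNA and precursor that those of the other breeds lack. Fewer miRNAs passed without those pairs, as given in the closing section. The change in bta-miR-22-3p was smaller than the 1.5-fold that the study required for RFI. The call held for each of the 40 steers left out in turn (adjusted p between 0.00435 and 0.0315). Without both libraries of low TMM factor it was -0.23 (adjusted p = 0.00545). It also held in an exact permutation test of the means of 11 KC sire codes and 7 Angus sires (difference -0.25, p = 0.0115, adjusted over 3 pairs of breeds p = 0.0345). The same exact test without the NA code gave -0.26 (p = 0.0128, adjusted p = 0.0383). Sire means weight a sire with 1 steer like a sire with several. The steer with the highest 3p level (low-RFI Angus replicate 5, 49319 CPM) was the only one of its sire, and no Angus sire was left out. The call was lost with library totals in place of TMM (log2 fold change -0.21, adjusted p = 0.0607). It was also lost in the 24 steers without an RFI label (-0.12, adjusted p = 0.554), while the 36 labelled steers gave -0.29 (adjusted p = 0.00778).

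Charolais had the middle mean for 3p. The log2 fold change against Angus was -0.11 (95% interval -0.23 to 0.02, adjusted p = 0.338), in a comparison where 3.02% of miRNAs passed. KC against Charolais gave -0.10 (95% interval -0.22 to 0.02, adjusted p = 0.281), where 16.6% passed. In exact permutation tests over sire means the differences were -0.21 for Charolais against Angus (p = 0.0379, adjusted over 3 pairs p = 0.0568) and -0.04 for KC against Charolais (p = 0.659), so the place of Charolais depended on how steers of 1 sire were weighted. Neither edgeR difference passed the threshold, and neither interval reached a 1.5-fold change.

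bta-miR-22-5p was not called between any pair of breeds by edgeR. Its log2 fold changes were -0.10 for Charolais against Angus (95% interval -0.26 to 0.05, adjusted p = 0.486), -0.17 for KC against Angus (-0.33 to -0.01, adjusted p = 0.133) and -0.07 for KC against Charolais (-0.22 to 0.09, adjusted p = 0.667). The KC against Angus value had an unadjusted p of 0.0336 and was close in size to that of the 3p arm. Without both libraries of low TMM factor it was -0.20 (adjusted p = 0.0512). For 5p the 24 unlabelled steers gave the larger difference, at -0.31 (adjusted p = 0.2), and the 36 labelled ones the smaller, at -0.11 (adjusted p = 0.523), the reverse of the order seen for 3p. Exact permutation tests over sire means of 5p gave -0.19 for KC against Angus (p = 0.0491, adjusted p = 0.0737) and -0.16 for Charolais against Angus (p = 0.0354, adjusted p = 0.0737).

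When the 9 groups of breed and RFI label were ordered by mean 3p level, low-RFI Angus came first (41961 ± 4627 CPM, n = 6) and low-RFI KC last (33084 ± 3895 CPM, n = 6). High-RFI Angus followed the first at 39887 ± 4836 CPM (n = 6) and unlabelled Angus came after unlabelled Charolais (37563 ± 4161 CPM, n = 8) at 36832 ± 3932 CPM (n = 8). Low-RFI and high-RFI Charolais stood at 36008 ± 6717 and 35461 ± 5667 CPM, and unlabelled and high-RFI KC at 34526 ± 6272 and 34178 ± 3273 CPM. Each step between neighbours in this order was smaller than the smaller of their SDs. The 3 KC groups held the lowest places. For 5p, low-RFI Angus was again first (44.2 ± 8.86 CPM) and unlabelled KC last (34.5 ± 6.60 CPM), a gap of 9.62 CPM between the ends of the order.

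The RFI comparison asked whether either arm differed between efficient and inefficient steers of 1 breed. In Angus, bta-miR-22-3p ran from 36916 through 41349 to 49319 CPM in low-RFI and from 32917 through 39346 to 46804 CPM in high-RFI steers. In Charolais it ran from 26158 through 36972 to 43875 CPM in low-RFI and from 29468 through 34563 to 42284 CPM in high-RFI steers. In KC it ran from 28563 through 33517 to 37581 CPM in low-RFI and from 28401 through 34786 to 37253 CPM in high-RFI steers. The groups overlapped in every breed. Sires with steers of both RFI groups numbered 2 in Angus, 1 in Charolais and 1 in KC, so RFI group and sire were largely confounded. The main tests of RFI count half-sibs as separate steers. Low against high RFI gave log2 fold changes of 0.09 for Angus (95% interval -0.11 to 0.29, adjusted p = 0.969), -0.02 for Charolais (-0.30 to 0.26, adjusted p = 0.998) and -0.05 for KC (-0.24 to 0.14, adjusted p = 0.995) by edgeR's quasi-likelihood test. By the study's rule of an unadjusted p under 0.05 and a fold change above 1.5, neither arm was called in any breed, where the share called was 2.41% of 373 miRNAs (Angus), 1.88% of 373 (Charolais) and 1.82% of 385 (KC). At an adjusted p of 0.05 no miRNA was called in any breed by edgeR, against 14, 19 and 14 at an unadjusted p under 0.05.

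The 5p arm had the higher mean in low-RFI steers of each breed, by amounts that did not pass the test and that leaned on single steers. Leaving out 1 steer at a time gave log2 fold changes from 0.02 (without low-RFI replicate 1) to 0.20 in Angus, from 0.03 (without high-RFI replicate 2) to 0.17 in Charolais and from 0.10 (without high-RFI replicate 1) to 0.23 in KC. In Angus it ran from 36 through 43.1 to 59.3 CPM in low-RFI and from 38.7 through 40.4 to 41.7 CPM in high-RFI steers. The log2 fold change was 0.15 (95% interval -0.13 to 0.43, adjusted p = 0.969). The 6 high-RFI Angus steers lay so close together that their CV of 2.83% was below the 7.75% that counting error alone would give. In Charolais 5p ran from 36.3 through 40.8 to 48 CPM in low-RFI and from 25.1 through 40.2 to 44.8 CPM in high-RFI steers, a log2 fold change of 0.11 (95% interval -0.25 to 0.47, adjusted p = 0.987). In KC it ran from 36 through 42.2 to 49.1 CPM in low-RFI and from 29.3 through 35.8 to 45.7 CPM in high-RFI steers. All 6 low-RFI KC steers lay above the high-RFI median, but only 1 lay above all 6 high-RFI steers. The log2 fold change was 0.19 (95% interval -0.08 to 0.46, p = 0.133, adjusted p = 0.966), and an exact two-sided permutation test over all relabelings gave p = 0.0996.

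A fit of the 36 labelled steers with breed as a term gave log2 fold changes of -0.02 for 3p (95% interval -0.15 to 0.10, adjusted p = 0.978) and 0.12 for 5p (-0.03 to 0.27, adjusted p = 0.956). Of 426 miRNAs, 0 (0%) were called at an adjusted p of 0.05 and 13 had an unadjusted p under 0.05 by edgeR. DESeq2 gave adjusted p-values for both members of at least 0.976 in this fit. The interaction of RFI and breed gave an adjusted p of 0.994 for both arms, with 0 (0%) of 426 miRNAs called and 16 at an unadjusted p under 0.05. Both intervals of the fit across breeds lay well inside a 1.5-fold change.

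**Figure D2:**
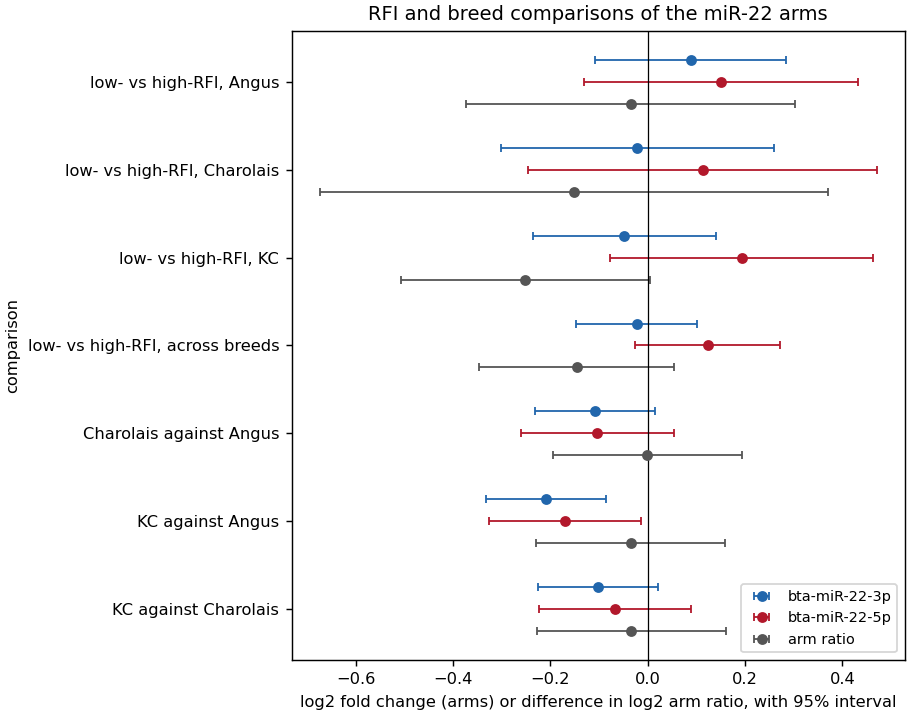
Log2 fold change of each miR-22 arm and difference in log2 arm ratio for 4 RFI comparisons (low-RFI against high-RFI) and 3 breed comparisons, with 95% intervals. The 3p interval for KC against Angus runs from -0.33 to -0.09 and the 5p interval from -0.33 to -0.01, while the other intervals include 0.

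The ratio of the arms within a library needs no scaling between libraries. Across the 60 steers bta-miR-22-3p was counted from 545 times through a median of 915.5 times to 1712 times as often as bta-miR-22-5p. The 5p arm made up 0.0584% to 0.183% of the reads of both arms. On the log2 scale the ratio was 9.86 ± 0.23 for Angus, 9.86 ± 0.39 for Charolais and 9.83 ± 0.27 for KC (SD over 20 steers). The breed means were thus nearly equal although both arms had lower means in KC. Limma gave differences of 0.00 for Charolais against Angus (95% interval -0.20 to 0.19, adjusted p = 0.991), -0.03 for KC against Angus (-0.23 to 0.16, adjusted p = 0.801) and -0.03 for KC against Charolais (-0.23 to 0.16, adjusted p = 0.895). In the same fits of 29 hairpins, 0%, 6.9% and 13.8% of the hairpins were called.

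miR-22 was the most unequal of these 29 hairpins, which are those with both arms named and above the filter of 1 CPM. Its mean log2 ratio of 9.85 in favour of 3p was followed by 8.93 for bta-miR-27a (3p higher) and by -8.61 for bta-let-7a (5p higher). The median size of the log2 ratio was 2.88, and 13 hairpins favoured 3p and 16 favoured 5p. The 3p arm of miR-22 was the more abundant in 60 of 60 steers. The SD of its ratio over 60 steers, 0.30, was the sixth smallest of the 29, whose median SD was 0.50. Hairpins whose weaker arm fell below the filter could be more unequal and are not ordered here.

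**Figure D3:**
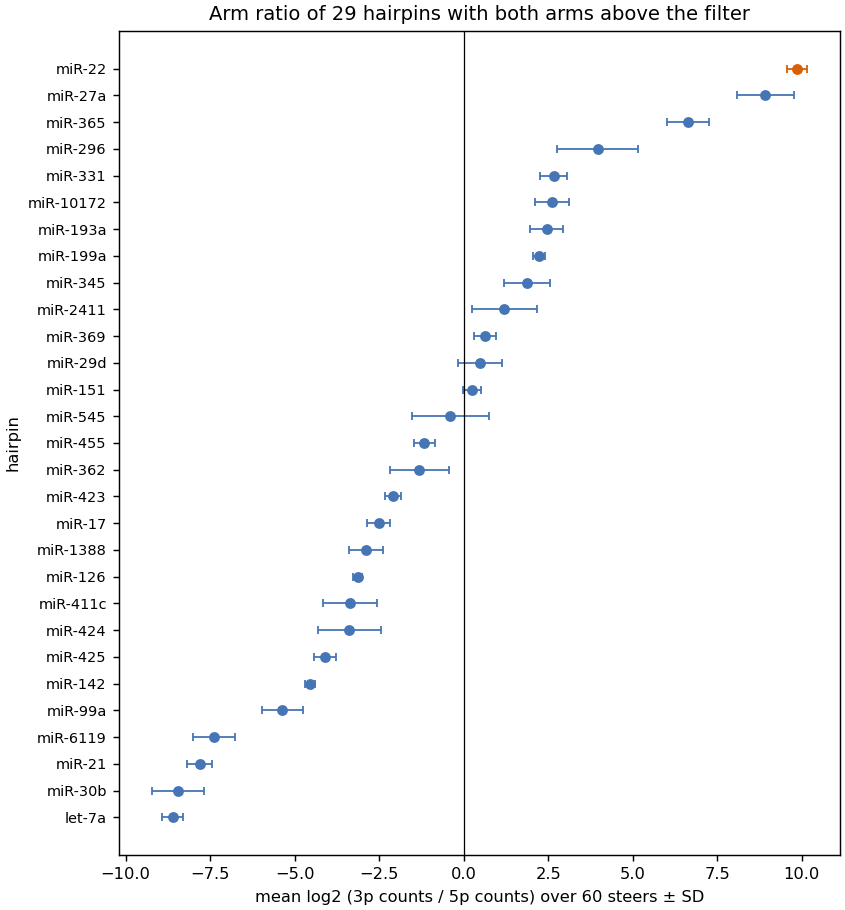
Mean log2 ratio of 3p to 5p counts over 60 steers for each of 29 hairpins, with the SD over steers as bars. miR-22 (orange) has the largest value at 9.85, ahead of miR-27a at 8.93, while let-7a at -8.61 is the most unequal in the other direction.

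Low-RFI steers had the lower mean arm ratio in each breed, but the lower median only in KC. The low-RFI median log2 ratio was the higher in Angus (9.95 against 9.93) and in Charolais (9.81 against 9.76). In KC the log2 ratio ran from 9.35 through 9.61 to 9.89 in low-RFI and from 9.64 through 9.86 to 10.14 in high-RFI steers. Of the 6 low-RFI KC steers, 3 lay below all high-RFI steers and 1 lay above their median, so the groups overlapped. The difference in means was -0.25 (95% interval -0.51 to 0.00, SE 0.11). Its p of 0.0483 was the smallest among 28 hairpins, but the adjusted p was 0.643 by limma. The exact two-sided permutation test gave p = 0.039 and, adjusted over 3 breeds, p = 0.117. It counts half-sibs as separate steers, and only 1 KC sire had steers of both groups (1 low-RFI and 3 high-RFI). Leaving out 1 steer at a time gave differences between -0.31 and -0.20, with the unadjusted p under 0.05 in 4 of 12 cases. Beside this difference, the 5 leukocyte miRNAs, which include bta-miR-223, summed to 3903 to 5388 CPM (median 4085) in low-RFI and 3422 to 4015 CPM (median 3693) in high-RFI KC steers. Low-RFI and high-RFI medians of this leukocyte sum were 3855 and 3618 CPM in Angus (3673 to 5139 and 3217 to 3957). In Charolais they were 3855 and 3535 CPM (3302 to 4115 and 3374 to 4829). The low-RFI median was thus the higher in each breed, with overlapping ranges, and not in KC alone. In bulk liver, fewer cells of a type and less RNA per cell cannot be told apart. The other lists overlapped more widely, with medians in low-RFI and high-RFI KC of 255710 and 240911 CPM (4 hepatocyte miRNAs, 210716 to 267301 and 227076 to 256979), 166041 and 177985 CPM (4 mesenchymal, 141938 to 206833 and 161086 to 185800) and 18191 and 18561 CPM (2 endothelial, 16444 to 18836 and 16755 to 20849). The 3 erythroid miRNAs had medians of 7291 and 7521 CPM (4116 to 13279 and 6057 to 8535) and the 5 biliary ones of 235.6 and 209.5 CPM (181.4 to 285.9 and 171.6 to 282.5). Each of these sums mostly follows the most abundant members of its list. The part of these lists in the difference was not tested.

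In Charolais the log2 ratio ran from 9.09 through 9.81 to 10.04 in low-RFI and from 9.44 through 9.76 to 10.71 in high-RFI steers. The difference was -0.15 (95% interval -0.67 to 0.37, adjusted p = 0.821). In Angus it ran from 9.41 through 9.95 to 10.28 in low-RFI and from 9.70 through 9.93 to 10.13 in high-RFI steers. The difference was -0.04 (95% interval -0.37 to 0.30, adjusted p = 0.976). The fit across breeds gave -0.15 (95% interval -0.35 to 0.05, adjusted p = 0.711), and its interaction with breed had an adjusted p of 0.921. By limma 0% of the hairpins were called for RFI in any breed or across breeds, against 2 in Angus, 4 in Charolais, 1 in KC and 1 across breeds at an unadjusted p under 0.05. The exact test, run for miR-22 alone, gave p = 0.818 in Angus and p = 0.554 in Charolais.

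**Figure D4:**
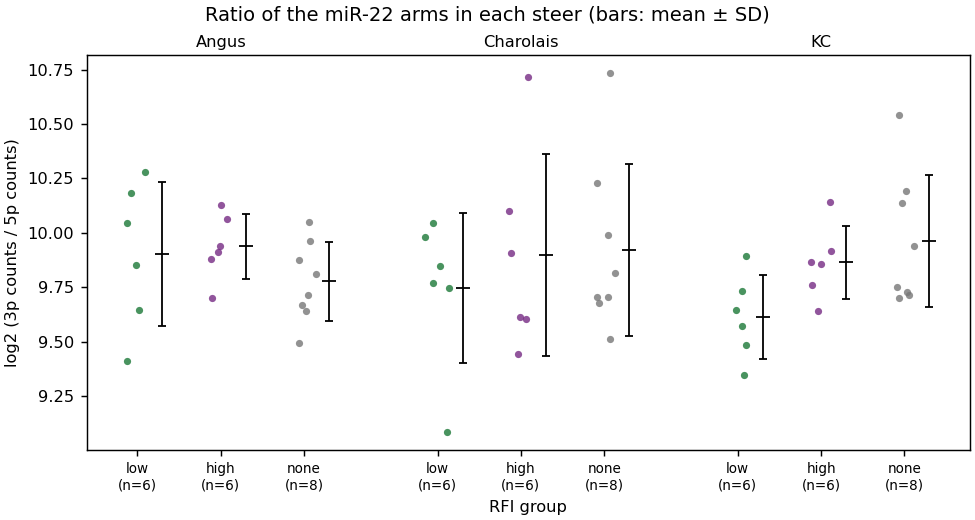
Log2 ratio of bta-miR-22-3p to bta-miR-22-5p counts in each steer by breed and RFI group, with mean ± SD beside each group (the axis does not start at 0). Low-RFI KC steers have the lowest mean at 9.61, and single Charolais steers reach 9.09 and 10.73.

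Counting error made up the smaller part of the variance of the ratio over steers. Its SD came to 0.23 (Angus), 0.39 (Charolais) and 0.27 (KC), whereas counting error alone would give 0.12, 0.12 and 0.10. Steers at the ends of the range were Charolais. The lowest ratio, 545, came from a low-RFI steer with 102464 counts of 3p and 188 of 5p. The highest ratios, 1712 and 1687, came from an unlabelled steer with 171237 and 100 counts and from a high-RFI steer with 231084 and 137 counts. In both of these the 5p arm was low, at 23.8 and 25.1 CPM, and the 3p arm was above the Charolais median. The unlabelled one is the library with a TMM factor of 0.698.

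Half-sib families covered wide ranges. The 8 Charolais steers of 1 sire ran from 33545 to 42284 CPM of 3p, and the 8 KC steers of 1 sire from 25063 to 40067 CPM. The log2 arm ratio ran from 9.60 to 10.71 in that Charolais family and from 9.49 to 10.19 in that KC family. The 6 Angus steers of 1 sire covered a narrower range, from 9.70 to 10.05.

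Whether the arms vary together over steers depended on the scaling. With TMM, Pearson's r between log2 CPM of 3p and 5p was 0.28 for Angus (permutation p = 0.231), -0.23 for Charolais (p = 0.332) and 0.30 for KC (p = 0.201), over 20 steers of each breed. All 3 adjusted p-values were 0.332. Spearman's rho was 0.18 for Angus (permutation p = 0.438), -0.17 for Charolais (p = 0.464) and 0.30 for KC (p = 0.203), and all 3 adjusted p-values were 0.464. Without the 2 steers farthest from the median 3p level, r was -0.08, -0.07 and 0.44. The Angus value rested largely on 1 library, the one with a TMM factor of 0.673, without which r was 0.02 (n = 19).

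With CPM from library totals alone, r was 0.74 for Angus (permutation p = 0.00298, adjusted p = 0.00894), 0.26 for Charolais (p = 0.278, adjusted p = 0.278) and 0.51 for KC (p = 0.0227, adjusted p = 0.0341). Spearman's rho was then 0.37, 0.26 and 0.46, with adjusted permutation p-values of 0.161, 0.267 and 0.13. Without the 2 farthest steers r fell to 0.37, 0.23 and 0.37. Among Angus steers, the unlabelled library with a TMM factor of 0.673 had the lowest values of both arms on that scale. Both arms of a library share its divisor on either scale. With TMM and without both low-factor libraries, r was 0.02 for Angus (n = 19), -0.15 for Charolais (n = 19) and 0.30 for KC (n = 20).

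**Figure D5:**
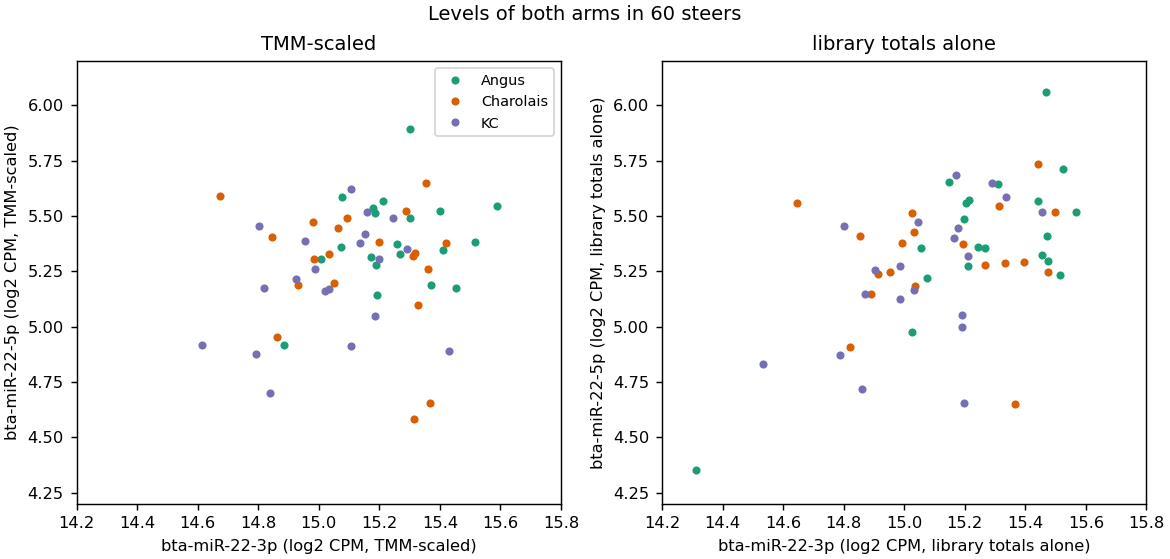
Log2 CPM of bta-miR-22-5p against log2 CPM of bta-miR-22-3p in 60 steers coloured by breed, with TMM scaling (left) and with library totals alone (right). On the left r is 0.28 (Angus), -0.23 (Charolais) and 0.30 (KC), and on the right it is 0.74, 0.26 and 0.51, with 1 Angus steer at the lower left corner. The unlabelled Charolais steer of replicate 7, at 4.06 for 5p with library totals, lies below the axis of the right panel. It is included in r.

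Depth did not pass a test against the arm ratio. Pearson's r between the library total and the log2 ratio was 0.24 for Angus (permutation p = 0.306, adjusted p = 0.459), 0.38 for Charolais (p = 0.102, adjusted p = 0.307) and -0.04 for KC (p = 0.865, adjusted p = 0.865), over 20 steers of each breed. Spearman's rho was 0.34, 0.34 and -0.13, with permutation p-values of 0.139, 0.136 and 0.59 and adjusted p-values of 0.208, 0.208 and 0.59. Without the 2 steers of most extreme depth r was 0.29, 0.52 and 0.19. In Charolais, r was 0.21 without the library of low TMM factor.

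The miRNAs most alike to each arm over the 60 steers, by Spearman correlation of log2 CPM centred on the breed mean among 396 others, were different ones. For bta-miR-22-3p they were bta-miR-1468 (rho 0.69), bta-miR-423-5p (0.59) and bta-miR-423-3p (0.56). For bta-miR-22-5p they were bta-miR-139 (rho 0.59), bta-let-7a-3p (0.50) and bta-miR-15a (0.45). The other arm of the hairpin came 128th for 3p, with a rho of 0.09 against a median of -0.01 over all others. These correlations share libraries and their scaling and are given as a description.

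The 3p arm was about as steady between steers as other abundant miRNAs. Its SD within breeds was 0.20 on the log2 scale, against a median of 0.20 over the 50 most abundant miRNAs and 0.42 over all 397. For 5p the SD within breeds was 0.25, against a median of 0.33 over the 70 miRNAs within 2-fold of its level.

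Among 21 miRNAs known for roles in liver metabolism, a list chosen with earlier results of these data known, counts of called miRNAs are read against the shares over all miRNAs given above. For RFI, 0 of 21 were called in Angus and Charolais and 1 of 21 in KC (1.82% over all), where bta-miR-223, a myeloid miRNA, was higher in low-RFI steers (log2 fold change 0.69, adjusted p = 0.646 by edgeR's quasi-likelihood test). Across breeds 0 were called. Against Angus, Charolais had 2 of 21 higher (3.02% over all, either direction), bta-miR-122 (0.29, adjusted p = 0.0419) and bta-miR-182 (0.47, adjusted p = 0.0418). KC had 1 of 21 lower than Angus (12.8% over all), bta-miR-107 (-0.13, adjusted p = 0.0186). KC had 2 of 21 lower than Charolais (16.6% over all), bta-miR-182 (-0.37, adjusted p = 0.0363) and bta-miR-21-5p (-0.23, adjusted p = 0.0298). The median log2 fold change of the list in KC against Angus was 0.04, against 0.00 over all miRNAs tested.

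Summed cell type markers are given beside the difference in bta-miR-22-3p between KC and Angus, whose medians were 34387 and 38569 CPM. All 4 hepatocyte miRNAs were counted, and their summed level had medians of 241786 CPM in Angus (198767 to 263318) and 244197 CPM in KC (203940 to 267301). Of these, bta-miR-122 alone had medians of 7120 CPM in Angus and 7959 CPM in KC, so the sum mostly followed other members of the list. The 4 mesenchymal miRNAs had medians of 164846 CPM in Angus (131638 to 206413) and 171719 CPM in KC (139924 to 232559), and the 2 endothelial ones 17426 CPM (13741 to 20961) and 17686 CPM (12896 to 20849). The 3 erythroid miRNAs stood at 8085 CPM in Angus (5254 to 13036) and 7521 CPM in KC (4116 to 15117), the 5 leukocyte ones at 3713 CPM (1931 to 5139) and 3938 CPM (2596 to 5388), and the 5 biliary ones at 219.6 CPM (116.9 to 378.1) and 229.8 CPM (124.8 to 347.5). Every list overlapped between the breeds, and no marker was at 0 in a whole breed. The part of these lists in the breed difference was not tested.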

How the data were processed

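Hepatic small RNA of 60 steers was sequenced. The deposited values are raw read counts per mature miRNA and precursor. The authors trimmed reads with cutadapt 1.16, removed other small RNAs, mapped with Bowtie 1.1.1 to UMD3.1 and counted with miRDeep2, without normalization. Files of Angus and Charolais hold 1155 pairs and those of KC 52 more.

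Counts over precursors were averaged and rounded. edgeR 4.0.16 (R 4.3.3) fitted quasi-likelihood models with TMM to miRNAs that reached 1 CPM in 6 of 12 steers or more (RFI within breeds), 6 of 36 (across breeds) or 20 of 60 (breeds), with Benjamini-Hochberg adjustment over all miRNAs tested. RFI calls followed the study (unadjusted p under 0.05, fold above 1.5) and breed calls an adjusted p under 0.05. limma 3.58.1 tested log2 ratios of arms with a pseudocount of 0.5 over hairpins whose arms both passed. Intervals of 95% used the residual degrees of freedom of the steers alone, without those the tools borrow across miRNAs, so they are slightly wider than the tests. DESeq2 1.42.0 served for alternatives. Permutation tests were two-sided, exact or with 100000 resamples (scipy 1.17.1). Figures used matplotlib 3.10.9. RNAduplex came from ViennaRNA 2.7.2. Between 1930859 and 6759381 counts per steer were available. Fits were tested on simulated data.

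Named are both arms, the miRNAs ranked next to bta-miR-22-3p, the 3 most alike to each arm, hairpins of larger skew (of which there was none, so the next of each direction are named, chosen after their values were seen) and called metabolic miRNAs. The members, lists and tests were chosen with earlier results of these data known. Each steer is 1 animal, and p-values measure the spread between steers. The RFI tests other than the fit with sire count half-sibs as separate steers. Alternatives covered the test, normalization, filter, precursors, depth, steers and sire. Leaving out each steer or both low-factor libraries in breed comparisons, tests over sire means, and unscaled correlations were added after seeing the data. Predicted miRNAs were not analysed here beyond their sequences.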

Additional observations from a re-analysis of the deposited data

Results flagged for a closer look

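In low-RFI Charolais, replicate 5 had a log2 ratio of bta-miR-22-3p to bta-miR-22-5p of 9.09, apart from the other 5 steers at 9.74 to 10.04. Its gap to the nearest steer was 0.688 of the range of the group, above Dixon's critical value of 0.625 for 6 samples. This was 1 of 27 sets of values looked at (3 quantities in 9 groups), and chance marks about 1 in 20.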

How the results depend on the processing

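Within the alternatives run, neither arm and no arm ratio was called for RFI in any breed or across breeds. The direction of the 5p difference between RFI groups held in every alternative, while bta-miR-22-3p in Charolais changed sign with library totals only (0.0535), without a filter (0.00563) and with precursor counts summed (0.0107), and ranged from -0.0748 to 0.0483 with 1 steer left out (above 0 without low-RFI replicate 2, 5 or 6 or high-RFI replicate 2 or 3). The arm ratio ranged from -0.111 to 0.0635 in Angus and from -0.243 to 0.0114 in Charolais with 1 steer left out, above 0 in Angus without low-RFI replicate 1 or 4 or high-RFI replicate 6 and in Charolais without high-RFI replicate 2.

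Between breeds, bta-miR-22-3p in KC against Angus lost its call with library totals only (-0.21) and in the 24 steers without an RFI label (-0.12), which gave 0.00542 for Charolais against Angus. The arm ratio of Charolais against Angus was 0.00321 with a pseudocount of 5 and ranged from -0.0471 to 0.0396 with 1 steer left out. That of KC against Charolais ranged from -0.0741 to 0.0126 (above 0 without high-RFI replicate 2 or unlabelled replicate 7 of Charolais) and was 0.0126 without both libraries of low TMM factor. The correlation of the arms became 0.74 (Angus), 0.26 (Charolais) and 0.51 (KC) with library totals only and -0.0805 in Angus without its 2 farthest steers, and library total against arm ratio in KC became 0.19. The cause of these shifts was not tested.

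Numbers of miRNAs called for RFI in Angus, Charolais and KC (9, 7 and 7) were 20, 17 and 15 without a filter and 1, 1 and 4 with at least 10 counts in every steer. With sire as a covariate, only 1 sire in Charolais and 1 in KC had steers of both RFI groups, so that fit set 1 low-RFI steer against 4 and 3 half-sibs, gives no check of the group result, and assumes that the lone steer varies like the others. It gave 48 and 14 calls, 3p at 0.0842 and 0.0874, and in KC 5p at 0.58 (adjusted p = 0.801) and the arm ratio at -0.49 (adjusted p = 0.37). For Charolais against Angus (12), library totals only gave 7, leaving out pairs listed only for KC 6, thinned counts 7, the 36 labelled steers 2 and the 24 others 0. For KC against Angus (51), leaving out those pairs gave 29, the 36 steers 25 and the 24 others 15, and for KC against Charolais (66) the 24 gave 12.

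No paired analysis was possible because replicate numbers do not link steers of different groups. With 75 to 276 counts of bta-miR-22-5p per steer, counting error limits single values of that arm, while the spread between steers sets most of the error of the ratio.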
